A study of Homo sapiens with 12 samples.

Results

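The genes described here are the 8 that carry the main steps of cellular iron handling, out of 60675 genes in the count tables: TFRC and SLC11A2 for uptake, FTH1, FTL and NCOA4 for storage and its turnover, SLC40A1 for export, and ACO1 and IREB2 for sensing. They were chosen by name after the transferrin receptor gene TFRC had been seen to rise with the inhibitor combination in the libraries labelled LNCaP, with the question of whether storage and export genes moved the other way. That contrast, and any that contains it, is therefore given below as levels and fold changes with no test. All 8 genes had a row in every library. 7 of the 8 passed the filter on low counts in the LNCaP:C42 fit (SLC40A1 did not), and all 8 passed it in the LNCaP fit.

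RNA sequencing covered LNCaP, a human prostate cancer line that depends on androgen, and LNCaP:C42, its castration-resistant derivative. R1881, a synthetic androgen, was present at 1 nM for 72 h in every group, in hormone-stripped serum, so the control groups carried R1881 with the DMSO vehicle. The 6 groups, each of 2 biological replicates, were LNCaP:C42 with R1881 alone, with R1881 and namoline (50 µM, which blocks the histone demethylase KDM1A), with R1881 and TCE-5002 (a KDM7A-selective demethylase inhibitor) and with R1881 and both inhibitors, called the combination, plus LNCaP with R1881 alone or with both inhibitors. The dose of TCE-5002 differs between the series text and the study's methods and is not given here, and LNCaP had no group with a single inhibitor.

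Cells take up iron bound to transferrin through the transferrin receptor, move it out of the endosome through the transporter DMT1, keep the excess inside ferritin shells built of heavy and light chains, and export it through ferroportin. Iron regulatory proteins tune this system after transcription: when iron is scarce they bind short hairpins called iron-responsive elements, which protects the transferrin receptor mRNA from decay and blocks translation of the ferritin and ferroportin mRNAs. A ferritin mRNA level in RNA sequencing therefore does not read that translational control, while the transferrin receptor mRNA level includes it. Ferritin genes are also regulated at transcription, for instance by oxidative stress.

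The hairpin sequences are shown because they separate the genes whose mRNA is protected from those whose translation is blocked. The annotated untranslated regions of the 8 genes (GENCODE v29, GRCh38) were searched on the transcript strand for a C, then 5 bases, then CAGTGN, then 5 bases able to pair with the first 5, with G-U pairs allowed. Each 30-base window is written 5′ to 3′ in DNA letters, with the bulged C and the CAGTGN loop in capitals. The 5′ untranslated region of FTH1 (chr11:61967573-61967602, minus strand), of FTL (chr19:48965335-48965364, plus strand) and of SLC40A1 (chr2:189580660-189580689, minus strand) held 1 match each, and the 3′ untranslated region of TFRC (chr3, minus strand) held 4, at chr3:196050978-196051007, chr3:196050574-196050603, chr3:196050509-196050538 and chr3:196050462-196050491 as elements A to D.
FTH1 5′ element: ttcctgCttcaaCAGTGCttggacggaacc
FTL 5′ element: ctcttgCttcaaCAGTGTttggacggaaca
SLC40A1 5′ element: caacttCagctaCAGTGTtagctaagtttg
TFRC 3′ element A: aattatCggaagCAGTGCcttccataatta
TFRC 3′ element B: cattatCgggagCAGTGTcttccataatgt
TFRC 3′ element C: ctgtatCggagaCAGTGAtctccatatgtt
TFRC 3′ element D: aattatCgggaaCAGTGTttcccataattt
The same letters and pairing were found in the 5′ untranslated region of 36 of 18809 genes (0.191%) and in the 3′ untranslated region of 132 of 19089 genes (0.691%). A match is a description of letters, and these letters were not found in the windows searched for SLC11A2, NCOA4, ACO1 or IREB2. The search took only stems of 5 unbroken pairs. An element with another stem form would be missed, so a gene without a match may still carry one.

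Some features of the libraries touch the values below. Library totals ran from 14791602 to 20690819 counts. The count table of LNCaP combination replicate 1 carries a header that names namoline without TCE-5002, against its title, so the LNCaP results are given with and without it. The libraries labelled LNCaP also stood apart from LNCaP:C42 in cell type markers: with R1881 alone, the summed level of 12 luminal prostate markers was 938.7 to 1022 CPM (counts per effective library size, scaled by TMM factors) in LNCaP and 3978 to 4092 CPM in LNCaP:C42, while that of 12 mesenchymal markers was 955.2 to 1040 CPM in LNCaP and 81.82 to 82.59 CPM in LNCaP:C42. Every luminal marker reached 1 CPM in all groups, and VIM, the mesenchymal filament vimentin, averaged 693.5 CPM in the LNCaP R1881 libraries and 2.429 CPM in those of LNCaP:C42. VIM alone made up most of the LNCaP mesenchymal sum, but the difference was not confined to it. In the same order, ZEB1 averaged 42.22 and 0.4234 CPM, ZEB2 49.58 and 0 CPM, SNAI2 78.71 and 2.221 CPM and CDH2 50.14 and 0 CPM. Of 9 mesenchymal markers tested, 7 were lower in LNCaP:C42 past an adjusted p of 0.05 and 2-fold, and 1 was higher. EPCAM, an epithelial adhesion gene, averaged 3.797 CPM and 137.5 CPM in the same order. Some markers went against their sums. The luminal marker KLK3 averaged 380.4 CPM in LNCaP and 215 CPM in LNCaP:C42 with R1881. The mesenchymal marker COL1A1 averaged 4.498 CPM and 49.74 CPM in the same order. The identity of the libraries labelled LNCaP was not checked beyond these markers, and LNCaP below means that label. The line cannot be told apart from whatever else separates these libraries. In bulk RNA, a change in the share of cells expressing a gene and a change in RNA per cell cannot be told apart either.

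In LNCaP:C42 cells, 1 uptake gene and 2 storage genes rose together with each treatment. The receptor gene TFRC, the ferritin heavy chain gene FTH1 and the ferritin light chain gene FTL were all higher with namoline, with TCE-5002 and with the combination, in both replicates of each. Such separation from both controls was common among the members. NCOA4, ACO1 and IREB2 also lay above with namoline and with the combination, and ACO1 and SLC11A2 with TCE-5002. SLC11A2 lay below with namoline. How often this held over all genes was not counted, so the separation is not read as a trait of the iron genes. The balance differed by treatment: single inhibitors raised TFRC most, at 3.23-fold and 3.08-fold, while the combination raised FTH1 7.82-fold and FTL 4.43-fold and TFRC 1.84-fold. None of the 7 genes tested fell past the threshold with any of the 3 treatments.

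**Figure D1:**
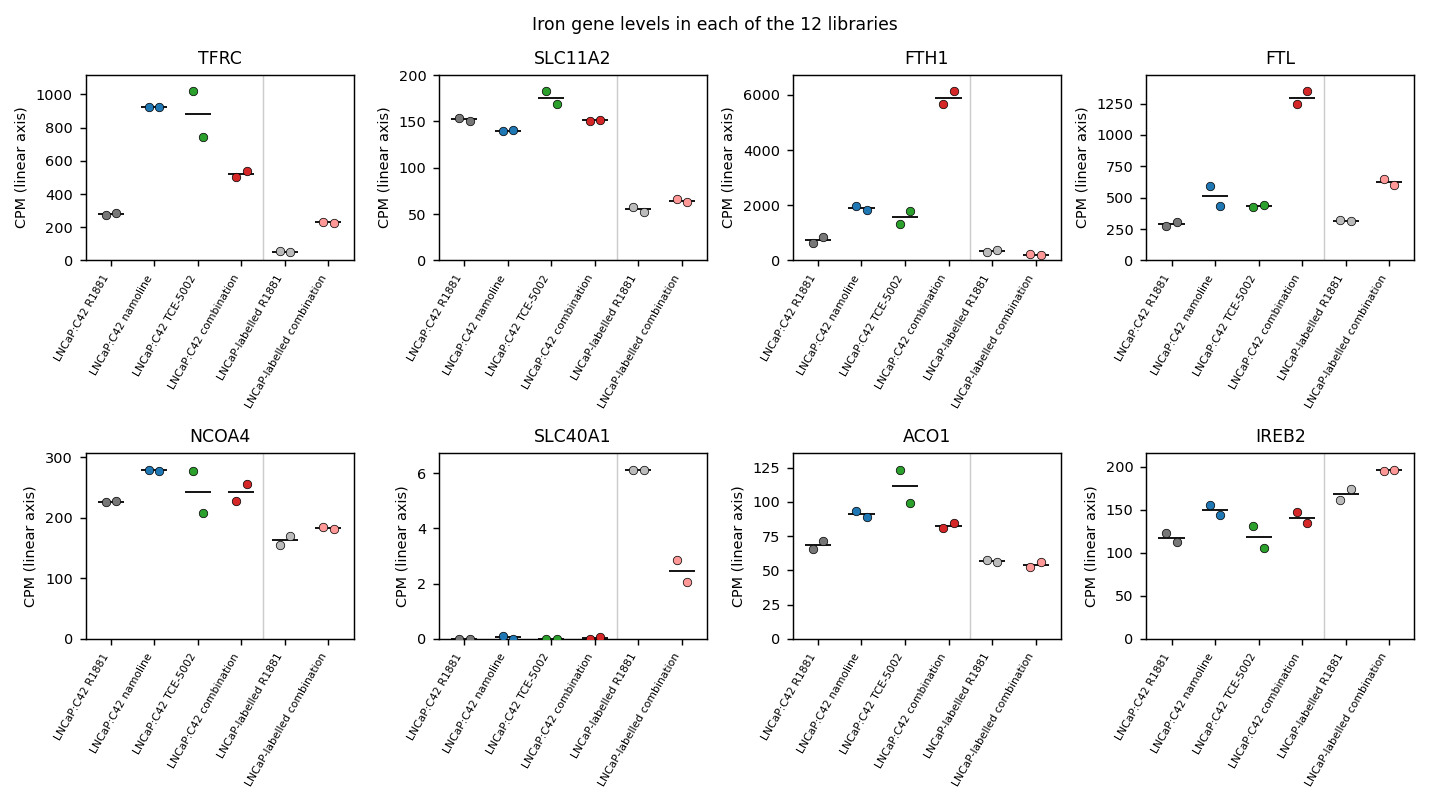
Level of each of the 8 iron genes in CPM (linear axes from 0), 1 point per library and a line at the mean of the 2 libraries of a group. In LNCaP:C42, TFRC peaked with the single inhibitors (mean 922.7 CPM with namoline) and FTH1 and FTL with the combination (means 5889 and 1298 CPM), while in LNCaP the combination libraries were high in TFRC and FTL and low in FTH1 and SLC40A1.

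TFRC (chr3:196027183-196082189, minus strand), which encodes the transferrin receptor, stood at 274.8 and 287.5 CPM in the LNCaP:C42 R1881 libraries. It stood at 923.9 and 921.5 CPM with namoline, at 1018 and 742.6 CPM with TCE-5002, and at 501.9 and 540.4 CPM with the combination. All 6 treated libraries were above both controls, and both combination libraries lay below all 4 single-inhibitor libraries. The TCE-5002 pair was the most unlike of the replicate pairs, with 45 of 10402 genes at least 2-fold apart against 4 to 16 in the other groups. The difference between its replicates also went with the GC content of genes (Spearman correlation -0.775 over 10428 genes). The next strongest was the LNCaP combination pair, at 0.622. The part of GC content in the TFRC spread was not tested. Against R1881, TFRC rose by 1.69 on the log2 scale with namoline (SE 0.13, edgeR quasi-likelihood adjusted p = 4.76e-07) and by 1.62 with TCE-5002 (SE 0.13, adjusted p = 1.29e-06). With the combination its log2 fold change was 0.88 (SE 0.13, adjusted p = 8.59e-05), past the adjusted p but under the 2-fold part of the threshold. The direct comparisons passed the adjusted p as well: TFRC was lower with the combination than with namoline by 0.82 (log2 fold change -0.82, SE 0.13, adjusted p = 0.000105) and than with TCE-5002 (log2 fold change -0.75, SE 0.13, adjusted p = 0.000235).

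The interaction, the combination effect minus the sum of both single effects on the log2 scale, was -2.44 for TFRC (SE 0.19, adjusted p = 1.05e-07). The single-inhibitor effects thus did not add up on TFRC. This term was past the adjusted p and 2-fold for 35.3% of the 17702 genes tested, and for 1 of the 7 iron genes. All contrasts with R1881 in LNCaP:C42 share the same 2 control libraries and are set side by side only.

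FTH1 (chr11:61959718-61967660, minus strand), the ferritin heavy chain with the ferroxidase activity that loads iron into the shell, was at 649.5 and 842.5 CPM with R1881. It was at 1985 and 1831 CPM with namoline, at 1322 and 1799 CPM with TCE-5002, and at 5654 and 6124 CPM with the combination. Both combination libraries exceeded the 10 others, and its counts made up 0.557% and 0.567% of all counts there against 0.0684% and 0.089% with R1881. The log2 fold change against R1881 was 1.33 with namoline (SE 0.16, adjusted p = 2.33e-05), 1.05 with TCE-5002 (SE 0.16, adjusted p = 0.000198) and 2.97 with the combination (SE 0.17, adjusted p = 1.39e-08). The TCE-5002 value lay close to the 2-fold threshold and went under it in several settings, among them without LNCaP:C42 R1881 replicate 1 or TCE-5002 replicate 2 (0.80 at the lowest) and with a correction for GC content (0.99). The combination exceeded namoline by 1.63 (SE 0.16, adjusted p = 1.17e-06) and TCE-5002 by 1.92 (SE 0.16) on the log2 scale. The interaction of FTH1 was 0.59 (SE 0.22, adjusted p = 0.0392), and it missed the adjusted p in 4 of the 8 fits that left out 1 library, namely R1881 replicate 2, namoline replicate 2 or either combination replicate (adjusted p = 0.069 to 0.235).

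FTL (chr19:48965301-48966878, plus strand), the light chain that supports mineral formation in the shell, was at 277.5 and 302.8 CPM with R1881. It was at 590.5 and 434.8 CPM with namoline, at 428.6 and 444.6 CPM with TCE-5002, and at 1249 and 1347 CPM with the combination. The groups did not overlap with the controls, and the combination libraries were the highest of all 12. Its log2 fold change was 0.80 with namoline (SE 0.14, adjusted p = 0.000478), 0.57 with TCE-5002 (SE 0.14, adjusted p = 0.0052) and 2.15 with the combination (SE 0.14, adjusted p = 5.28e-08), so that only the last passed 2-fold. Without LNCaP:C42 R1881 replicate 1, the TCE-5002 adjusted p for FTL was 0.0726. FTL was higher with the combination than with namoline by 1.35 (SE 0.14) and than with TCE-5002 by 1.58 (SE 0.14), both past the threshold, and its interaction was 0.78 (SE 0.19, adjusted p = 0.00363). That interaction passed 2-fold, at 1.09, when a correction for GC content was added.

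The 2 ferritin genes have processed copies elsewhere in the genome, and fragments matching several places were not counted. The 25 annotated FTH1 copies held 0.53% to 1.48% as many counts as FTH1 itself, and the 16 FTL copies 0.103% to 0.486% as many as FTL. FTH1 also overlaps BEST1 on the other strand, and counting did not use strand, and BEST1 averaged 544 counts per library against 31110 for FTH1 and went from 65.6 and 59.8 CPM with R1881 to 28.3 and 30.3 CPM with the combination in LNCaP:C42. These levels are reported as uncertain in absolute terms for that reason.

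**Figure D2:**
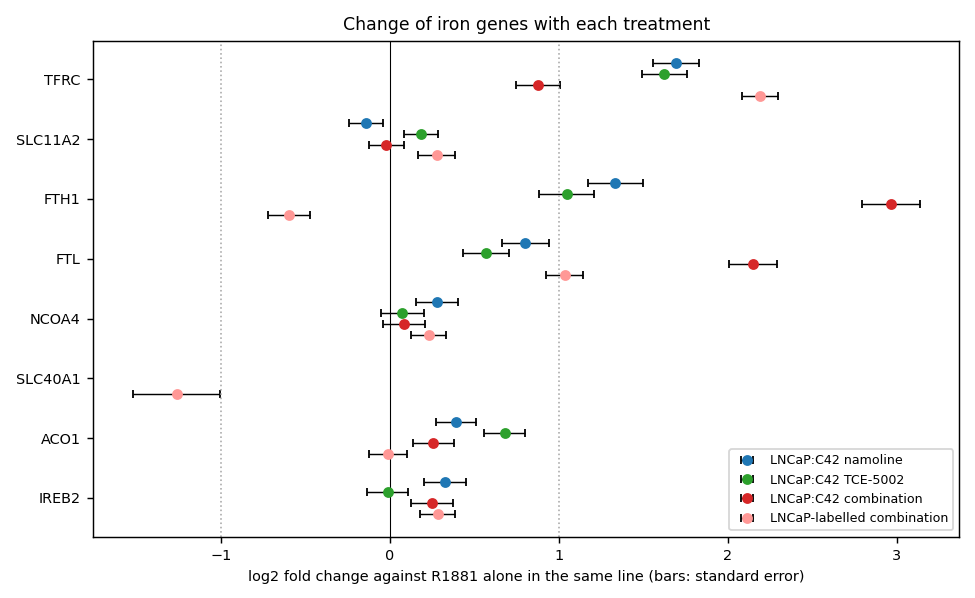
Log2 fold change of each iron gene against R1881 alone in the same line (points) with its standard error (bars), for 3 treatments of LNCaP:C42 and the combination in LNCaP, dotted lines at 2-fold. FTH1 sat at 2.97 in LNCaP:C42 and at -0.60 in LNCaP with the combination, TFRC was right of 0 in all 4 contrasts, and no LNCaP:C42 value is drawn for SLC40A1, which had at most 2 counts in any LNCaP:C42 library.

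None of the other 4 members tested reached a 2-fold change in LNCaP:C42. SLC11A2 (chr12:50979401-51028566, minus strand), which encodes the transporter DMT1, was at 153.3 and 150.8 CPM with R1881, 139.5 and 140.3 CPM with namoline, 182.3 and 168.3 CPM with TCE-5002 and 150.8 and 151.5 CPM with the combination. Its log2 fold changes of -0.14, 0.18 and -0.02 did not pass the test (adjusted p = 0.310, 0.175 and 0.882), and an approximate 95% interval for the combination ran from -0.22 to 0.18. NCOA4 (chr10:46005088-46030714, minus strand), the receptor that delivers ferritin to autophagy and is also known as an androgen receptor coactivator, had log2 fold changes of 0.28, 0.07 and 0.08 with namoline, TCE-5002 and the combination (adjusted p = 0.101, 0.686 and 0.605). Its levels ranged from 206.8 to 279 CPM over the 8 LNCaP:C42 libraries.

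ACO1 and IREB2 encode the iron regulatory proteins 1 and 2, the first of which serves as a cytosolic aconitase when it holds an iron-sulphur cluster. ACO1 (chr9:32384603-32454769, plus strand) was at 65.73 and 71.39 CPM with R1881, 93.46 and 89.04 CPM with namoline, 123.4 and 99.45 CPM with TCE-5002 and 80.78 and 84.56 CPM with the combination. It rose with TCE-5002 (log2 fold change 0.68, SE 0.12, adjusted p = 0.000568) and with namoline (0.39, SE 0.12, adjusted p = 0.0199), both under 2-fold, and the namoline call was lost when any 1 library of that comparison was left out (adjusted p = 0.0639 to 0.198). With the combination the log2 fold change was 0.26 (SE 0.12, adjusted p = 0.0871), which passed the adjusted p with a correction for GC content (0.30, adjusted p = 0.0034), and the interaction was -0.81 (SE 0.17, adjusted p = 0.000932). IREB2 (chr15:78437431-78501456, plus strand) had log2 fold changes of 0.33, -0.01 and 0.25 with namoline, TCE-5002 and the combination, none past the test (adjusted p = 0.0512, 0.947 and 0.104). With the GC correction 4 further small changes passed the adjusted p, all under 2-fold: IREB2 with namoline (0.42) and with the combination (0.25), NCOA4 with namoline (0.31) and SLC11A2 with TCE-5002 (0.25).

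SLC40A1 (chr2:189560579-189583758, minus strand), which encodes the exporter ferroportin, was at or near 0 counts in LNCaP:C42. It had 0 counts in 6 of the 8 libraries, 2 counts in namoline replicate 1 and 1 count in combination replicate 2. A count of 0 allows up to 3 counts, equal to 0.145 to 0.203 CPM per library across the 12. No fold change is given for it in this line.

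Counted over the members, 2 of the 7 tested were past the adjusted p and 2-fold with namoline (TFRC and FTH1), 2 with TCE-5002 (the same pair) and 2 with the combination (FTH1 and FTL), all higher. Of all 17702 genes tested, 12.1%, 11.8% and 21.7% passed in either direction and 5.17%, 5.04% and 8.87% were higher. By the adjusted p alone the counts were 4, 4 and 3 of 7, again all higher, where 35%, 36.5% and 50.3% of all genes passed and 18.7%, 19.9% and 24.8% were higher. At the combination, 3 of 7 by the adjusted p in either direction is no larger a share than the background. The median log2 fold change of the 7 was 0.39, 0.57 and 0.26, against -0.0043, -0.00014 and -0.034 over all genes tested. Between the combination and a single inhibitor, 2 of 7 passed both parts (FTH1 and FTL) against namoline and the same 2 against TCE-5002, both higher, where 27.5% and 26.1% of all genes passed in either direction and 12.8% and 11.7% were higher. By the adjusted p alone TFRC was also lower in both of these comparisons and ACO1 in the one with TCE-5002, where 55.9% and 55.1% of all genes passed. The summed luminal markers also differed between these groups, at 4619 to 5004 CPM with namoline, 6164 to 6273 CPM with TCE-5002 and 2505 to 2547 CPM with the combination, and their part in the iron gene results was not tested.

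Per kilobase of deposited gene length, a rough scale for setting different genes side by side, FTH1 and FTL were the most abundant members in LNCaP:C42 with R1881. They stood at 367.5 ± 67.2 and 330.5 ± 20.4 CPM per kilobase (SD, n = 2), and did not differ beyond their spread. That closeness rests on the lengths used, 2030 bases for FTH1 and 878 for FTL. By counts alone FTH1 to FTL was 2.34 and 2.78 in these libraries. NCOA4 followed at 55.42 ± 0.23 and TFRC at 35.65 ± 1.14 CPM per kilobase, then SLC11A2 at 15.48 ± 0.18. IREB2 and ACO1 came after these at 10.88 ± 0.721 and 9.075 ± 0.53 CPM per kilobase. With the combination FTH1 (2901 ± 164 CPM per kilobase) stood clear of FTL (1479 ± 78.9), and TFRC (66.07 ± 3.45) was close to NCOA4 (59.3 ± 4.74).

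A ratio of counts within a library needs no scaling between libraries. Per kilobase of deposited gene length, such a ratio compares genes only roughly, since that length need not match the transcripts present. Ferritin fragments matching several places were also not counted. The size of each ratio is therefore uncertain, while its change between libraries does not depend on the length used. TFRC to FTH1, both per kilobase, was 0.109 and 0.0878 in the LNCaP:C42 R1881 libraries. It was 0.12 and 0.13 with namoline, 0.198 and 0.106 with TCE-5002, and 0.0228 and 0.0227 with the combination. The combination libraries were thus the lowest of all 12, and the TCE-5002 pair was the most spread. In LNCaP the ratio ran the other way, from 0.0463 and 0.034 with R1881 to 0.236 and 0.324 with the combination.

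The makeup of ferritin mRNA shifted too. FTH1 to FTL per kilobase was 1.01 and 1.2 in the LNCaP:C42 R1881 libraries, 1.45 and 1.82 with namoline, 1.33 and 1.75 with TCE-5002 and 1.96 and 1.97 with the combination. Every treated library of this line had more FTH1 per FTL than either control. In LNCaP it was 0.411 and 0.519 with R1881 and 0.167 and 0.131 with the combination, the lowest of all libraries.

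**Figure D3:**
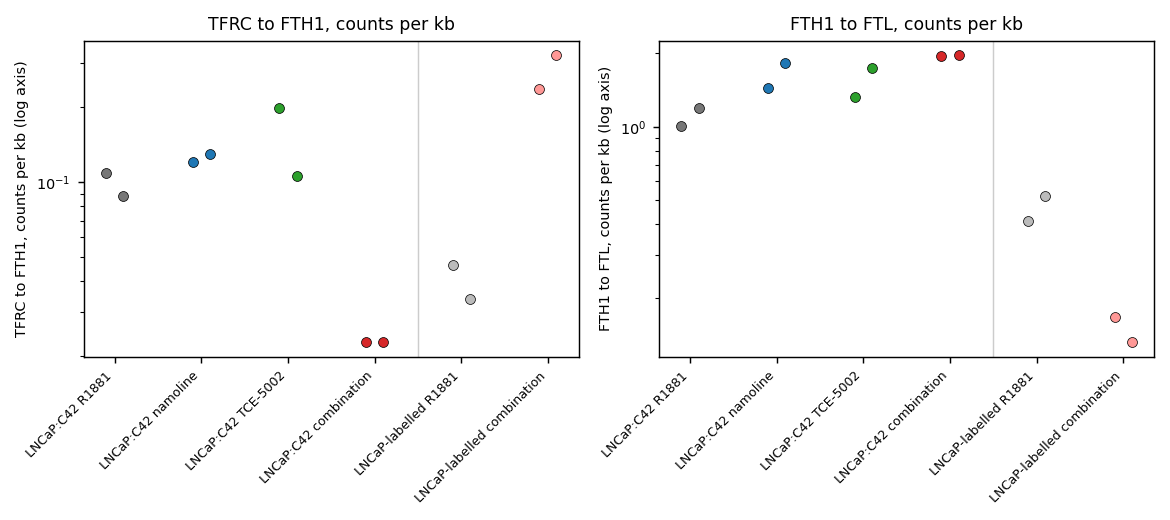
Ratio of TFRC to FTH1 (left) and of FTH1 to FTL (right) in each library, both as counts per kilobase of gene length, on log axes, 1 point per library. With the combination the TFRC to FTH1 ratio was 0.0228 and 0.0227 in LNCaP:C42 but 0.236 and 0.324 in LNCaP, and the FTH1 to FTL ratio moved in opposite directions in the 2 lines.

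In the libraries labelled LNCaP, the contrast that chose the genes, TFRC was at 54.94 and 49.83 CPM with R1881 and at 230.1 and 228.1 CPM with the combination, a log2 fold change of 2.19 (SE 0.11), or 4.56-fold. FTL went from 321.8 and 315 CPM to 650.7 and 600.4 CPM (log2 fold change 1.04, SE 0.11). FTH1 was at 305.6 and 377.6 CPM with R1881 and 251.4 and 181.4 CPM with the combination (log2 fold change -0.60, SE 0.13). The storage genes did not move as 1 unit, since the light chain was higher with the combination while the heavy chain was lower. SLC40A1 had 129 and 134 counts with R1881 (6.11 and 6.126 CPM) and 47 and 40 counts with the combination (2.852 and 2.065 CPM), a log2 fold change of -1.26 (SE 0.26).

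Without the combination replicate 1, whose header names namoline alone, the LNCaP log2 fold change was 2.17 for TFRC, 0.96 for FTL, -0.87 for FTH1 and -1.52 for SLC40A1. No direction changed for these 4 genes, while FTL fell under 2-fold. The lower FTH1 level leaned on combination replicate 2, and without that library its log2 fold change was -0.37. Among the others, SLC11A2 was at 57.92 and 52.8 CPM with R1881 and 65.89 and 62.82 CPM with the combination (log2 fold change 0.28, SE 0.11), and the log2 fold change was 0.23 for NCOA4, 0.28 for IREB2 and -0.01 for ACO1. ACO1 turned to 0.02 when replicate 1 was left out, and a correction for GC content brought SLC11A2, NCOA4 and IREB2 to 0.07, 0.02 and 0.02. The summed luminal markers were 424.9 to 546.3 CPM with the combination, against 938.7 to 1022 CPM with R1881, and their part in these values was not tested.

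The libraries labelled LNCaP and LNCaP:C42 differed in the iron genes before any inhibitor was added. TFRC averaged 52.38 CPM in LNCaP and 281.1 CPM in LNCaP:C42 with R1881 alone. These values are given with no test because the TFRC levels of these LNCaP libraries entered the choice of the genes. SLC11A2 was higher in LNCaP:C42 by 1.51 on the log2 scale (SE 0.09) and FTH1 by 1.18 (SE 0.13), both past the threshold, and FTH1 fell just under 2-fold without LNCaP:C42 R1881 replicate 2 (0.99) or without LNCaP R1881 replicate 1 (1.00). FTL differed by -0.08 (SE 0.09, adjusted p = 0.413). NCOA4 was higher by 0.53 and ACO1 by 0.32, and IREB2 was lower by 0.46 (log2 fold change -0.46), all past the adjusted p but under 2-fold. SLC40A1 averaged 6.12 CPM in LNCaP with R1881 and had 0 counts in both LNCaP:C42 R1881 libraries, so it was at least 75.5-fold lower there, taking 3 counts over both libraries as the floor. Of all 19763 genes tested between these libraries, 50.5% passed both parts.

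The combination effect in LNCaP:C42 minus that in LNCaP contains the contrast that chose the genes and is given without a test. On the log2 scale it was -1.36 for TFRC (SE 0.12), 3.52 for FTH1 (SE 0.19) and 1.06 for FTL (SE 0.12). Without LNCaP combination replicate 1 these values were -1.37, 3.76 and 1.11. For FTH1 the sign itself differed between the lines, while TFRC and FTL were higher with the combination in both.

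Other genes of iron handling, from 5 lists of 60 genes chosen by function, were read as context. In LNCaP:C42, 48 of the 60 could be tested. With namoline, 3 rose and 2 fell past both parts of the threshold, and 17 rose and 8 fell by the adjusted p alone. With TCE-5002, 3 rose and 0 fell past both parts, and 19 rose and 5 fell by the adjusted p alone. With the combination, 3 rose and 4 fell past both parts, and 12 rose and 18 fell by the adjusted p alone. Their median log2 fold change was 0.21, 0.31 and -0.13 in that order. Over all 17702 genes the shares higher and lower by the adjusted p alone were 18.7% and 16.3% with namoline, 19.9% and 16.7% with TCE-5002 and 24.8% and 25.6% with the combination, and past both parts 12.1%, 11.8% and 21.7% in either direction. Whether the iron lists differed from these shares was not tested.

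Among uptake genes, SLC39A8, a metal transporter of the ZIP family, went from 45.78 ± 1.87 CPM (SD, n = 2) with R1881 to 178.7 ± 4.62 CPM with namoline (log2 fold change 1.94, standard error 0.13, edgeR adjusted p = 9.53e-08). With TCE-5002 it was at 116.1 ± 22.5 CPM (log2 fold change 1.32). STEAP3, the ferrireductase that works beside the transferrin receptor in the endosome, rose by 1.52 with namoline (SE 0.17) and by 1.18 with TCE-5002 (SE 0.17). LCN2, a siderophore-binding secreted protein, fell by 2.06 with namoline on the log2 scale (SE 0.25). STEAP2, a related metalloreductase highly expressed in prostate, was at 1193 ± 52.8 CPM with R1881 and 394.7 ± 83.4 CPM with the combination and fell by 1.61 (SE 0.15). BMP6, which signals iron status to the liver hormone hepcidin, was the other rising gene with each single inhibitor (log2 fold change 2.03 and 2.48) and is named after its values were seen, since it was below 5 CPM.

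In haem handling, HMOX1, the oxygenase that frees iron from haem, rose with the combination from 10.38 ± 1.51 to 26.25 ± 3.06 CPM (log2 fold change 1.33, SE 0.20). FLVCR2, a transporter of the FLVCR family, fell by 1.42 with namoline (SE 0.22) and by 2.08 with the combination (SE 0.23). Among regulators, EPAS1, the hypoxia factor HIF-2α whose mRNA also carries an iron-responsive element, rose by 1.34 with the combination (SE 0.26) from 2.368 to 6.1 CPM and by 0.94 with TCE-5002, which passed the adjusted p alone, and CDC14A, a phosphatase gene whose 3′ untranslated region held 1 match to the hairpin letters, fell by 1.56 (SE 0.16). Among mitochondrial genes, SLC25A28, which imports iron into mitochondria, was at 8.059 CPM with R1881 and at 15.55, 16.31 and 17.08 CPM with namoline, TCE-5002 and the combination. It rose by 0.93, 1.00 and 1.07 on the log2 scale (SE 0.16 each), with only the last past 2-fold. BOLA3, an iron-sulphur cluster assembly factor, fell by 1.18 with the combination and is named after its values were seen, to complete the 4 that fell.

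**Figure D4:**
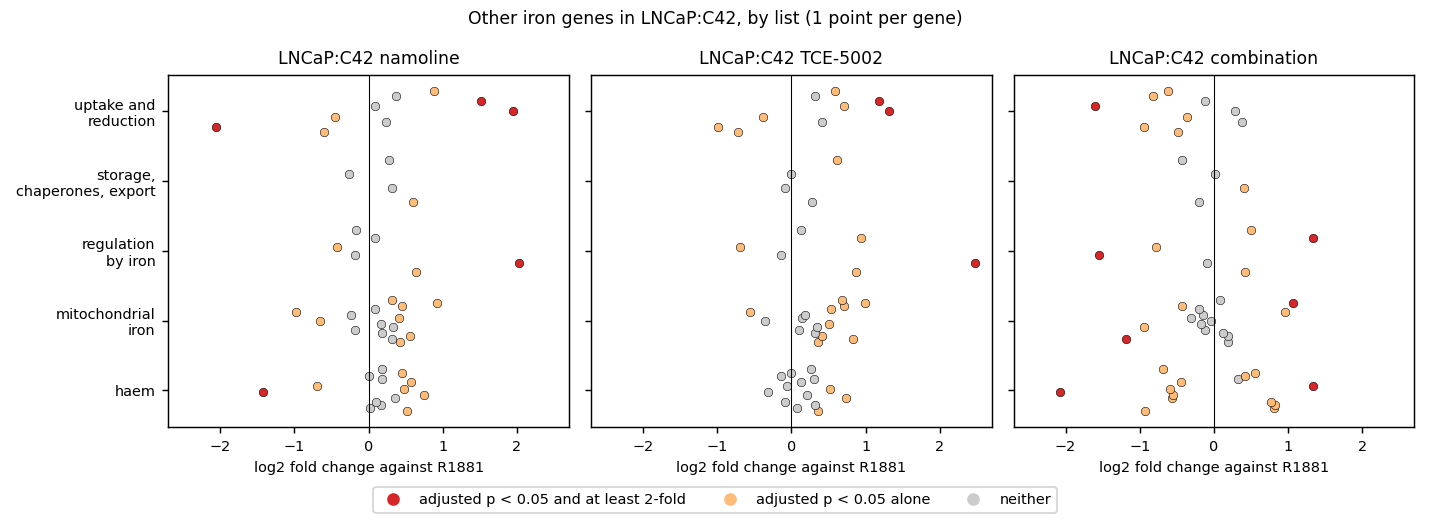
Log2 fold change against R1881 of each tested gene of the 5 other iron lists in LNCaP:C42 (1 point per gene, 48 genes per panel), by treatment and list. Red points passed the adjusted p and 2-fold, orange points the adjusted p alone, and the combination panel holds 18 genes lower and 12 higher by the adjusted p against 8 and 17 with namoline.

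Over the 8 LNCaP:C42 libraries, Pearson's r of log2 CPM was 0.982 between FTH1 and FTL, 0.887 between TFRC and ACO1 and 0.311 between TFRC and FTH1. The ferritin genes thus ran together across libraries, and TFRC ran with ACO1 more closely than with the ferritins. These values describe 4 treatment groups of 2 libraries of 1 cell line, and no test was made. Of 9560 genes, those with a pattern most like TFRC included NEIL2 (r = 0.990) and PEX5 (0.982). Those most like FTH1 were NTMT1 (0.996), CES2 (0.993) and TAP1 (0.991), and those most like FTL were DDB2 (0.996), ACER2 (0.991) and NTMT1 (0.991).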

How the data were processed

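RNA was captured by polyA selection and sequenced in paired ends in 12 libraries. The authors trimmed reads with Trim Galore and used STAR with GRCh38 for alignment. The deposited values are whole, unnormalised fragment counts per gene, made per the file headers by featureCounts 1.5.0-p1 on Ensembl release 83, with no strand option. Groups came from the library titles, since a treatment field in the labels describes siRNA work. Depth was 14791602 to 20690819 counts.

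Of 60675 genes, 41209 had a symbol. Fits used all 8 LNCaP:C42 libraries, the 4 LNCaP libraries, or the 8 with R1881 or the combination. Genes were kept by filterByExpr, scaled by TMM and tested with the quasi-likelihood F test of edgeR 4.0.16 in R 4.3.3, and p-values were adjusted by Benjamini and Hochberg's method over every gene in the fit. A call needed an adjusted p under 0.05 and a change of at least 2-fold. The steps were tested on simulated data. P-values rest on 2 libraries a group. CPM use TMM factors over 12 libraries, and gene lengths are those deposited. Members and lists were chosen with earlier results of these data known. Named genes were the 8 members, up to 3 rising and 3 falling genes of the other iron lists per LNCaP:C42 comparison with R1881 (past both parts of the call, the higher group reaching 5 CPM), and the 3 genes with the highest Pearson r to TFRC, FTH1 and FTL among genes of at least 10 mean CPM, of which 1 is not reported here. Alternatives were RLE scaling, no filter, a likelihood ratio test, DESeq2 1.42.0, a GC correction, a replicate block, the compared libraries alone, library totals without TMM, and leaving out each library.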

Additional observations from a re-analysis of the deposited data

Results flagged for a closer look

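In LNCaP:C42, the interaction of the 2 inhibitors passed the edgeR quasi-likelihood test by the adjusted p for 4 of the 7 iron genes tested. Past both parts of the threshold it was 1 of 7, against 35.3% of all 17702 genes. The share of all genes by the adjusted p alone is not given here. The 4 are therefore not read as a trait of the iron genes. The interaction was -2.44 on the log2 scale for TFRC, also past 2-fold, and under 2-fold for ACO1 (-0.814), FTL (0.778) and FTH1 (0.587). The FTH1 interaction missed the adjusted p in 4 of the 8 fits that left out 1 library.

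With the combination, both LNCaP:C42 libraries of FTH1 lay above their controls (log2 fold change 2.97) and both LNCaP libraries lay below theirs (-0.598). For ACO1 the libraries of each line also lay on opposite sides of their controls in CPM scaled over all 12 libraries. In the fits, scaled separately, its log2 fold change was 0.258 in LNCaP:C42, which did not pass the test. In LNCaP it was -0.011, close to no change, and turned to 0.02 without combination replicate 1. How often all genes lay on opposite sides in this way was not counted. Neither difference between the lines was tested, since it contains the contrast that chose the genes.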

How the results depend on the processing

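The counts of genes past the threshold stayed within 1.5 times their reported value in all 112 alternatives computed for them. For TFRC, FTH1 and FTL in LNCaP:C42 and for TFRC, FTH1, FTL and SLC40A1 in LNCaP, no alternative turned the direction. With library totals in place of TMM, chosen after seeing the data, the median of all genes shifted by -0.165, -0.107 and -0.143 on the log2 scale with namoline, TCE-5002 and the combination in LNCaP:C42. As ratios of group means, NCOA4 turned negative (-0.026 with TCE-5002, -0.048 with the combination). IREB2 with TCE-5002 went from 0.009 to -0.111.

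Directions that turned belonged to changes near 0. The GC correction gave 0.104 for IREB2 with TCE-5002, 0.00758 for SLC11A2 with the combination and -0.0106 for NCOA4 between the combination and TCE-5002. RLE scaling gave 0.0104 and DESeq2 0.0103 for SLC11A2 with the combination. Over libraries left out, the log2 fold change ran from -0.145 to 0.268 for NCOA4 and from -0.170 to 0.130 for IREB2 with TCE-5002, from -0.0348 to 0.00355 for SLC11A2 with the combination, from -0.160 to 0.0305 for IREB2 against namoline, and from -0.184 to 0.230 for NCOA4 against TCE-5002. The interaction ran from -0.128 to 0.0103 for SLC11A2 and from -0.215 to 0.114 for IREB2. The cause was not tested.

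The replicate numbers were not taken as pairs, since the labels tie them to no shared day or batch and not every pair of groups had same-numbered deviations correlated over 0.1 (from -0.00776 to 0.267, with 0.214, 0.165 and 0.267 among R1881, TCE-5002 and namoline in LNCaP:C42). With the replicate number as a block, 2181, 2129 and 3871 genes passed with namoline, TCE-5002 and the combination in LNCaP:C42. Under the block, IREB2 passed the adjusted p with namoline (0.0119), with the combination (0.0398) and between the combination and TCE-5002 (0.0267), each under 2-fold. The block with the GC correction gave 0.105 for IREB2 with TCE-5002, 0.00777 for SLC11A2 with the combination and -0.0115 for NCOA4 between the combination and TCE-5002. With 10 member changes gaining an adjusted p under 0.05 by the GC correction, changes of the size seen for NCOA4, IREB2 and SLC11A2 depended on the setting at 2 libraries a group.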
